A study of Homo sapiens with 4 samples.

Results

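The antiviral effector genes described here are MX1, MX2, RSAD2, CMPK2, BST2, SAMHD1, IFI44, IFI44L, IFI6 and IFI27. They were taken by name from a table of 58735 genes, and each of the 10 symbols matched 1 gene of the table. All 10 had enough counts to enter the test, which covered 15817 genes. The 10 genes were chosen by name after their counts in shCON and shZDHHC15 samples had been compared, so these differences are given as a description and support nothing. In ZDHHC15-depleted cells, 9 of the 10 genes were between 2.66-fold and 47.1-fold higher than in control cells, and MX1 was 1.71-fold higher without passing the test, where 21.7% of all tested genes were called higher. Differences are given below as log2FC, the log2 of the fold change of shZDHHC15 over shCON, with its standard error (SE).

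Cells that sense viral nucleic acid secrete type I and type III interferons, which act through cell surface receptors and JAK kinases to assemble the transcription factor complex ISGF3. ISGF3 binds the interferon-stimulated response element in the promoters of interferon-stimulated genes, whose products block single steps of virus replication. Among these products, MX1 and MX2 are dynamin-like GTPases that trap viral nucleocapsids, and RSAD2 (viperin), CMPK2 and SAMHD1 act on nucleotides. BST2 (tetherin) holds budding virions at the cell membrane, and IFI6 and IFI27 are small hydrophobic membrane proteins.

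The samples were HCC1954 cells, an established human breast cancer line with amplified ERBB2, that carried either a scrambled control hairpin (shCON) or a hairpin against the palmitoyltransferase gene ZDHHC15 (shZDHHC15), with 2 samples per group. The hairpins were GIPZ shRNAs in lentiviral vectors, and all 4 samples went through transfection with a Lipofectamine reagent and were harvested 36 h later according to the labels, although the design text speaks of stable knockdown. The labels do not say whether the samples of a group came from separate cultures, clones or hairpins, so the p-values measure only the spread between these samples. The paper's methods mention western blot screening of several monoclonal cultures for the hairpins, without saying whether clones were sequenced here. Any difference between clones would coincide with the group difference and was not tested. Total RNA was sequenced and counted per gene, with totals between 17560982 and 19118704 counts per sample.

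ZDHHC15 received 17617 and 15716 counts in shCON cells and 0 and 0 counts in shZDHHC15 cells, at least 6045-fold lower against a floor of 3 counts per sample. How far a hairpin alone accounts for the complete absence of counts was not tested. The epithelial origin of the cells was visible in all 4 samples, since all 10 breast epithelial markers were above 10 counts. Their summed level was 17069 and 18370 CPM (counts scaled to the normalised size of each library) in shCON and 9970 and 10066 CPM in shZDHHC15. Of these markers 7 were called lower and 1 higher, where 20.3% and 21.7% of all tested genes were. Of 18 leukocyte markers, between 8 and 10 were at 0 in each sample, CD3E, CD3D, MS4A1, TYROBP, CD2 and LILRA4 among them, and the summed level lay between 6.61 and 12.4 CPM, most of it from CSF1R, which was lower in shZDHHC15 while CD14 was higher. For 10 stromal and endothelial markers the summed level was 54.2 and 57.2 CPM in shCON and 113 and 105 CPM in shZDHHC15, with LUM at 0 throughout and DCN, COL3A1 and PDGFRA at 1 count or none. COL1A1, PECAM1 and CDH5 were the 3 tested markers of this list and were all called higher, as were 21.7% of all tested genes. COL1A1 had 100 and 120 counts in shCON and 214 and 161 in shZDHHC15 (log2FC 0.65 ± 0.211 SE). The levels of most epithelial markers, of COL1A1 and of the endothelial genes moved with the groups, and their part in the results below was not tested. In such bulk RNA, a gain in every cell and a larger gain in some of the cells cannot be told apart.

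The promoters of several of the 10 genes carry the core of the interferon-stimulated response element. The choice of the genes used no promoter sequence. They are known interferon-stimulated genes, however, a class regulated through this element, so the matches are a description and no independent evidence. RefSeq promoter windows on GRCh38.p14, from 250 bases before to 50 bases after a start site, were found for 9 of the 10 genes, in 16 entries. They were searched on both strands for 2 GAAA units with any 2 bases between them, in which each unit reads TTTC on the other strand, and overlapping matches were kept. Of the 9 genes, 7 had a match in at least 1 entry and 4 had 2 or more, against 4.38% and 0.311% of all 27305 symbols with an entry. Counted by window, the core stood in 3.57% of all 35116 entries of the same length. The stretches around the matches of the 4 genes with 2 or more, and of IFI44 beside its neighbour IFI44L, are printed on the strand of the gene with the core in capitals.
IFI6: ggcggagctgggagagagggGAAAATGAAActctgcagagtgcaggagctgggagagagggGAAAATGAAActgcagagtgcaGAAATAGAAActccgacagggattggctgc
IFI44L: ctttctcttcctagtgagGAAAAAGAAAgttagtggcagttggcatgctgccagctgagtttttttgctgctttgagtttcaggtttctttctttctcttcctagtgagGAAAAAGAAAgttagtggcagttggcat
IFI27: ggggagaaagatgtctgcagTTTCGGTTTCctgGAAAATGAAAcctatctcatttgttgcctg
BST2: tttctggGAAACTGAAACTGAAAacctaat
IFI44: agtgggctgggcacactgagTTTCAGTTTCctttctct

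The IFI6 stretch lies at chr1:27672256-27672368 on the minus strand and holds 3 cores, at 156, 115 and 93 bases before the start site, of which the first 2 lie in a repeat of 29 identical bases. IFI44L (chr1:78620266-78620402, plus strand) has its 2 cores in a repeat of 46 identical bases. The 2 cores of IFI27 (chr14:94110608-94110670, plus strand) face opposite ways, and the 2 of BST2 (chr19:17405738-17405767, minus strand) overlap in a run of 3 GAAA units. IFI44 has its core at chr1:78649771-78649780, 18 bases before the first of its 2 start sites. RSAD2 matched only in the window of its second start site, and MX1 in 2 of 3 windows. No match was found in the windows of CMPK2 and SAMHD1, which says only that these letters are not there, and MX2 had no entry.

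Before any comparison between groups, the 10 genes differed widely in level. Levels between genes were compared as CPM per kilobase of the deposited gene length, which is the merged length of all annotated exons and so understates genes with long rare isoforms. In shCON cells IFI6 was the highest at 360 ± 43.5 CPM per kilobase (SD, n = 2), followed by BST2 at 173 ± 15.3 and IFI27 at 24.5 ± 3.42. IFI44, SAMHD1 and CMPK2 followed at 3.20 ± 0.294, 1.95 ± 0.0540 and 1.12 ± 0.0229 CPM per kilobase. RSAD2 (0.893 ± 0.107) and IFI44L (0.719 ± 0.0668) came next, and MX1 (0.176 ± 0.0237) and MX2 (0.0170 ± 0.0176) were lowest. No neighbours in this order overlapped in their samples.

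In shZDHHC15 cells IFI6, BST2, IFI27 and IFI44 kept the first 4 places, at 2006 ± 214, 460 ± 39.7, 140 ± 18.9 and 76.7 ± 6.40 CPM per kilobase. IFI44L moved from the 8th to the 5th place with 33.9 ± 3.12. CMPK2 (27.4 ± 3.27) and RSAD2 (26.0 ± 7.23) overlapped in their samples, so their order is not resolved. SAMHD1 fell back from the 5th to the 8th place with 16.8 ± 2.14, and MX2 (0.608 ± 0.153) passed MX1 (0.300 ± 0.0103). Together the 10 genes took 0.0595% and 0.0673% of all counts in shCON cells and 0.417% and 0.357% in shZDHHC15 cells, and IFI6 alone held between 45.7% and 48.2% of their counts in every sample. The plot of levels per length shows that the shCON and shZDHHC15 samples of each gene did not overlap.

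**Figure D1:**
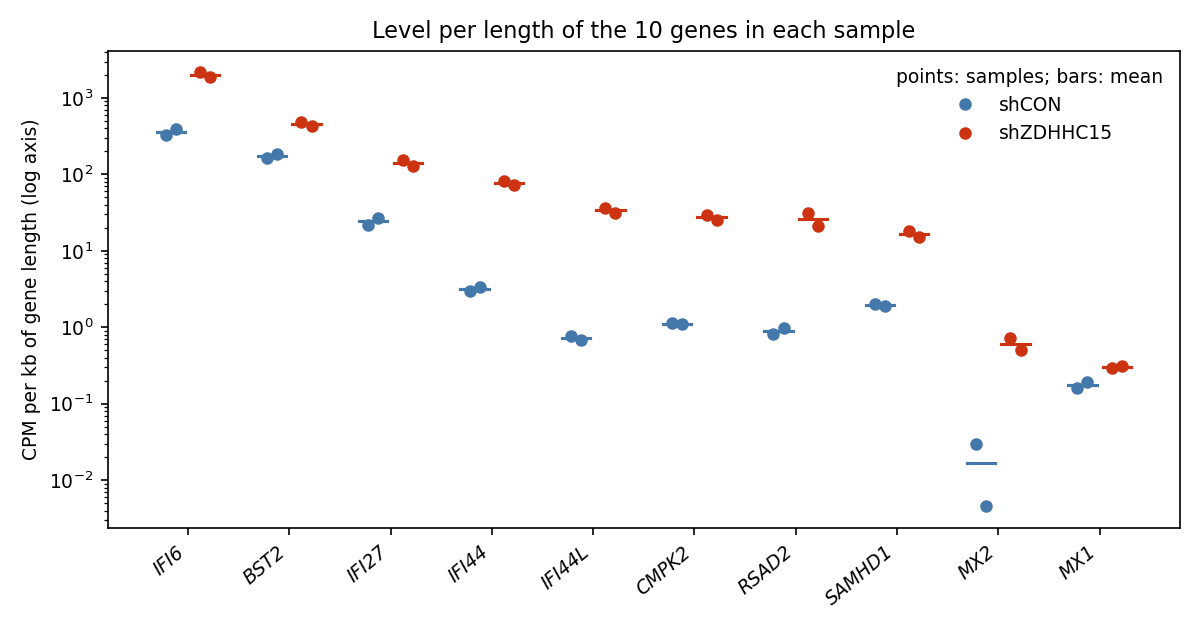
Level of each of the 10 genes in each sample, as CPM per kilobase of gene length on a log axis, with shCON in blue and shZDHHC15 in red; points are samples and bars are means of 2 samples. The red points lie above the blue points for every gene, by the least for MX1 (0.176 against 0.300 CPM per kilobase on average) and with the widest spread among replicates for MX2 in shCON.

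MX2 and MX1, the dynamin-like GTPases, lie next to each other on chromosome 21 with 10913 bases between them, and they were the lowest of the 10 genes in both groups. MX2 (ENSG00000183486, chromosome 21, 41361943 to 41409390) received 7 and 1 counts in shCON cells and 174 and 128 counts in shZDHHC15 cells. It was thus close to undetected in control cells and detected in both ZDHHC15-depleted samples, without overlap. The level rose from 0.222 ± 0.230 to 7.93 ± 2.00 CPM (SD, n = 2), or by 5.08 ± 0.449 (SE) as log2FC. From the 302 counts against 8, the ratio was 34.6 with a 95% exact interval of 17.4 to 81.0, which covers counting error only. The fitted value rested on single control samples, and was 6.88 on the log2 scale without shCON replicate 1 and 4.33 without shCON replicate 2.

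MX1 (ENSG00000157601, chromosome 21, 41420304 to 41459214), which encodes the MxA protein used as a common readout of interferon action, received 25 and 28 counts in shCON cells and 47 and 52 counts in shZDHHC15 cells. The groups did not overlap, but both were low, and the level went from 1.52 ± 0.204 to 2.59 ± 0.0883 CPM (SD, n = 2). The log2FC of MX1 was 0.77 ± 0.309 (SE), and it was the only one of the 10 genes short of the limit of 0.05 on the adjusted p (0.0564 by quasi-likelihood F test in edgeR). It passed with library size as the only scaling (0.0398) and when every sample had to hold 10 counts or more (0.0368), and over all alternatives its adjusted p lay between 0.0368 and 0.264. The antisense gene AP001610.1, which shares 236 exonic bases with MX1, had 0 counts in every sample.

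Levels of the neighbours changed places, since MX2 per length was 0.185 and 0.0236 times MX1 in the shCON samples and 2.44 and 1.63 times MX1 in the shZDHHC15 samples. The log2 fold changes of MX2 and MX1 differed by 4.30, the widest difference among the 4 pairs examined.

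RSAD2, CMPK2 and SAMHD1 encode enzymes that change the pool of nucleotides on which viral polymerases draw. RSAD2 (ENSG00000134321, chromosome 2, 6865806 to 6898239), the viperin gene, whose product turns CTP into a chain-terminating analogue, received 72 and 79 counts in shCON cells and 2801 and 1983 counts in shZDHHC15 cells. The group mean went from 4.32 ± 0.519 to 126 ± 34.9 CPM (SD, n = 2), or by 4.87 ± 0.202 (SE) as log2FC. Both shZDHHC15 samples were far above both controls, but they differed from each other by 0.57 on the log2 scale, more than those of any other of the 10 genes.

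CMPK2 (ENSG00000134326, chromosome 2, 6840570 to 6866635), a mitochondrial UMP-CMP kinase, stands head to head with RSAD2, and the spans of these neighbours overlap by 830 bases, of which 14 are exonic in both. It received 89 and 80 counts in shCON cells and 2381 and 2119 counts in shZDHHC15 cells. The level changed from 4.81 ± 0.0984 to 118 ± 14.1 CPM (SD, n = 2), or by 4.61 ± 0.146 (SE) as log2FC, with no overlap. Per length, RSAD2 was 0.720 and 0.879 times CMPK2 in the shCON samples and 1.05 and 0.833 times in the shZDHHC15 samples, so the ratios of the groups overlapped and this pair moved together.

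SAMHD1 (ENSG00000101347, chromosome 20, 36889773 to 36951901), a phosphohydrolase that breaks down deoxynucleotides and so starves reverse transcription, received 408 and 363 counts in shCON cells and 3840 and 3379 counts in shZDHHC15 cells. The mean moved from 21.9 ± 0.608 to 189 ± 24.1 CPM (SD, n = 2), or by 3.11 ± 0.119 (SE) as log2FC. Both shZDHHC15 samples lay far above the controls. TLDC2, on the opposite strand, shares 1159 exonic bases with it (10.3% of the length of SAMHD1) and had at most 10 counts in any sample.

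Genes that make the deoxynucleotides that SAMHD1 removes moved less and in both directions. Of 11 genes of deoxynucleotide supply, 3 passed as higher and 4 as lower, where 21.7% of all tested genes were higher and 20.3% lower, and the median log2 fold change was 0.06 against 0.02 over all genes. RRM1, the large subunit of ribonucleotide reductase, had the largest rise (log2FC 0.54 ± 0.0977 SE, adjusted p = 4.94e-04). DTYMK, the thymidylate kinase gene, was the lowest (log2FC -0.49 ± 0.106 SE, adjusted p = 0.00200). These calls were fragile. The number of higher genes was 1 without shCON replicate 2, without shZDHHC15 replicate 1 or without shZDHHC15 replicate 2, and the number of lower genes was 1 without shZDHHC15 replicate 1 and 2 without shZDHHC15 replicate 2 or with library size as the only scaling.

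BST2 (ENSG00000130303, chromosome 19, 17402939 to 17405648), the tetherin gene, was abundant in control cells already. It received 3302 and 3463 counts in shCON cells and 10169 and 9488 counts in shZDHHC15 cells. On average it went from 193 ± 17.1 to 515 ± 44.4 CPM (SD, n = 2), or by 1.41 ± 0.0993 (SE) as log2FC. The groups were well apart, but this was the smallest difference among the 9 genes that passed the limit. BST2 was the 1041st most abundant of the 15817 tested genes in shCON cells and the 237th in shZDHHC15 cells.

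IFI44L and IFI44 are paralogs that lie in tandem on chromosome 1, with 3650 bases between them, and encode cytoplasmic proteins whose roles are less well defined. IFI44L (ENSG00000137959, chromosome 1, 78619922 to 78646145) received 143 and 116 counts in shCON cells and 6887 and 6373 counts in shZDHHC15 cells, without overlap. Its mean was 7.36 ± 0.684 CPM in shCON and 347 ± 32.0 CPM in shZDHHC15 (SD, n = 2). This was the largest fold change of the 10 genes, 47.1-fold or 5.56 ± 0.131 (SE) as log2FC, and the 16th largest rise among all tested genes.

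IFI44 (ENSG00000137965, chromosome 1, 78649796 to 78664078) received 111 and 117 counts in shCON cells and 3081 and 2886 counts in shZDHHC15 cells. Mean levels went from 6.51 ± 0.599 to 156 ± 13.0 CPM (SD, n = 2), or by 4.59 ± 0.134 (SE) as log2FC, again with no overlap. Per length, IFI44L was 0.256 and 0.197 times IFI44 in the shCON samples and 0.445 and 0.439 times in the shZDHHC15 samples. IFI44L thus stayed below its neighbour per length in every sample, and the ratio was higher in both shZDHHC15 samples, by 0.97 on the log2 scale. In counts not divided by length the mean ratio of IFI44L to IFI44 was 1.14 in shCON and 2.22 in shZDHHC15. Which of the 2 stands higher thus depends on the lengths used.

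IFI6 and IFI27 belong to the same small family, and IFI6 has been linked to the replication sites of flaviviruses and to survival of cancer cells. IFI6 (ENSG00000126709, chromosome 1, 27666061 to 27672218) received 5188 and 5697 counts in shCON cells and 34751 and 31485 counts in shZDHHC15 cells. The mean level went from 311 ± 37.6 to 1735 ± 186 CPM (SD, n = 2), or by 2.48 ± 0.108 (SE) as log2FC. It stood 534th in abundance among the tested genes in shCON cells and 30th in shZDHHC15 cells.

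IFI27 (ENSG00000165949, chromosome 14, 94104836 to 94116698) received 1669 and 1883 counts in shCON cells and 11832 and 10301 counts in shZDHHC15 cells. The level went from 102 ± 14.2 to 580 ± 78.3 CPM (SD, n = 2), or by 2.51 ± 0.119 (SE) as log2FC, without overlap. Although IFI6 and IFI27 lie on different chromosomes, their ratio hardly moved. Per length, IFI6 was 14.9 and 14.5 times IFI27 in the shCON samples and 14.1 and 14.7 times in the shZDHHC15 samples, so the groups overlapped and the log2 fold changes differed by -0.03. In counts not divided by length the mean ratio was 3.07 in shCON and 3.0 in shZDHHC15. The size of the gap thus depends on the lengths used.

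**Figure D2:**
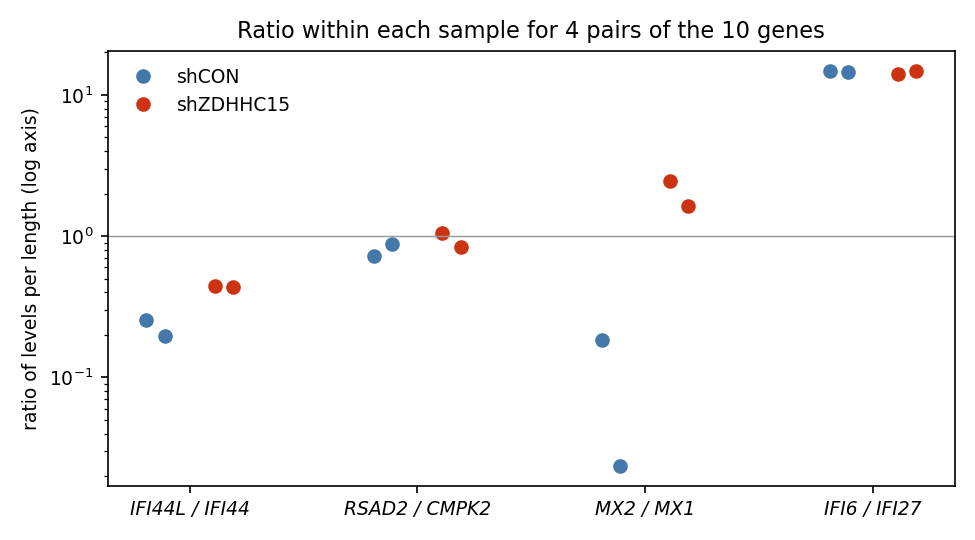
Ratio of the levels per length of 4 pairs of the 10 genes within each sample, on a log axis, with shCON in blue and shZDHHC15 in red; points are samples, and the grey line marks a ratio of 1. The IFI6 to IFI27 ratio stayed between 14.1 and 14.9 and the RSAD2 to CMPK2 ratio between 0.720 and 1.05, while the MX2 to MX1 ratio went from 0.185 or less to 1.63 or more.

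Seen together, the median log2FC of the 10 genes was 3.85, beside 0.02 over all tested genes, and 9 were called higher at an adjusted p under 0.05 and 0 lower. In the same comparison 42.0% of all tested genes were called and 21.7% were called higher, and nothing is read from the count of the 10 genes, which were chosen for this difference. All 10 had both shZDHHC15 samples above both shCON samples, as had 37.2% of all tested genes. The calls of these 9 genes stood under the 8 alternative fits and when any single sample was removed, except that MX2 was not tested where every sample had to hold 10 counts or more. In CPM not divided by length, IFI6, BST2, IFI27 and SAMHD1 were the 4 highest in control cells and had log2FC values of 1.41 to 3.11, while the genes below 10 CPM, other than MX1, had 4.59 to 5.56. Per length this order did not hold throughout, since IFI44 (log2FC 4.59) stood above SAMHD1 (3.11) in control cells. The control level is the divisor of each fold change and the genes were chosen for their rise, so nothing is read from this order.

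The fold changes are set beside the number of promoter cores as a description only. The genes were chosen for these fold changes, and a role of the core was not tested. IFI6 with 3 cores had a log2 fold change of 2.48, and BST2, IFI27 and IFI44L with 2 cores had 1.41, 2.51 and 5.56. RSAD2 and IFI44, with 1 core in a window, had 4.87 and 4.59. CMPK2 and SAMHD1, whose windows held none, had 4.61 and 3.11. MX1, with a match in 2 windows, had the smallest at 0.77.

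The samples of the shZDHHC15 group differed from each other in the same direction for most of these genes, a comparison that the choice of genes did not use. After scaling for library size, 9 of the 10 genes were higher in shZDHHC15 replicate 1 than in replicate 2, with a median difference of 0.23 on the log2 scale, and MX1 was the exception (-0.07). Over all tested genes 51.9% were higher in replicate 1, with a median difference of 0.01. The OAS, IFIT/IFITM and ISG15 genes listed below also stood higher in replicate 1, in 4 of 4, 7 of 7 and 6 of 6 genes, with medians of 0.32, 0.32 and 0.27. In the shCON samples 4 of the 10 genes were higher in replicate 1, with a median difference of -0.18. With 1 sample on each side these differences have no test.

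Other genes of the interferon response were examined to place the 10 genes, through lists that were likewise written with results of these data known. The counts of these lists stand beside 21.7% of all tested genes called higher, 20.3% called lower and a median log2FC of 0.02. All 4 genes of the OAS family, whose products sense double-stranded RNA, were higher, with a median log2 fold change of 4.36, from 3.02 for OAS3 to 5.38 for OAS2 (SE 0.149, adjusted p = 3.69e-12). All 7 IFIT and IFITM genes, which bind foreign RNA or block virus entry, were higher, with a median of 3.04 and the largest rise in IFIT3 (log2FC 4.53 ± 0.152 SE). All 6 genes of the ISG15 conjugation system were higher, with a median of 3.27 and the largest rise in UBA7, the activating enzyme (log2FC 3.68 ± 0.189 SE). The median of the 10 genes lay between those of the OAS and ISG15 genes. Their range, from 0.77 to 5.56, was the widest of these 4 groups, which hold 10, 4, 7 and 6 genes. Its low end was MX1, which was not called. The called genes of the 10 began at 1.41 (BST2), and the IFIT and IFITM genes ran from 1.0 to 4.53.

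Of 15 listed genes for interferon receptors and signalling, 14 were tested, 10 were higher and 0 lower (21.7% and 20.3% over all tested genes), with a median of 0.96. The largest rise on this list was that of STAT2, a subunit of ISGF3 (log2FC 1.90 ± 0.0993 SE, adjusted p = 1.66e-09). Of 10 nucleic acid sensor genes 9 were higher, with a median of 2.29, led by DHX58 (log2FC 3.61 ± 0.214 SE), and the adaptor gene MAVS was not called (log2FC -0.07 ± 0.0888 SE). Transcripts of the listed interferon genes themselves were scarce. Of 10 ligand genes, IFNA1, IFNA2, IFNK, IFNW1 and IFNG had 0 counts in all 4 samples, and IFNB1 had 1 and 0 counts in shCON and 4 and 3 in shZDHHC15. IFNL2 had 2 and 0 counts in shCON and 10 and 1 in shZDHHC15, and IFNL3 had 1 and 0 against 5 and 3. Only 2 ligand genes had enough counts to be tested, IFNE and IFNL1, and IFNE was not called (log2FC 0.65 ± 0.557 SE). IFNL1, a type III interferon, was called, from 5 and 2 counts to 12 and 15 (log2FC 1.79 ± 0.637 SE, adjusted p = 0.0347 in the edgeR fit). That call was lost when any single sample was removed, with the DESeq2 Wald test and without the filter on low counts, with adjusted p-values between 0.0628 and 0.259.

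**Figure D3:**
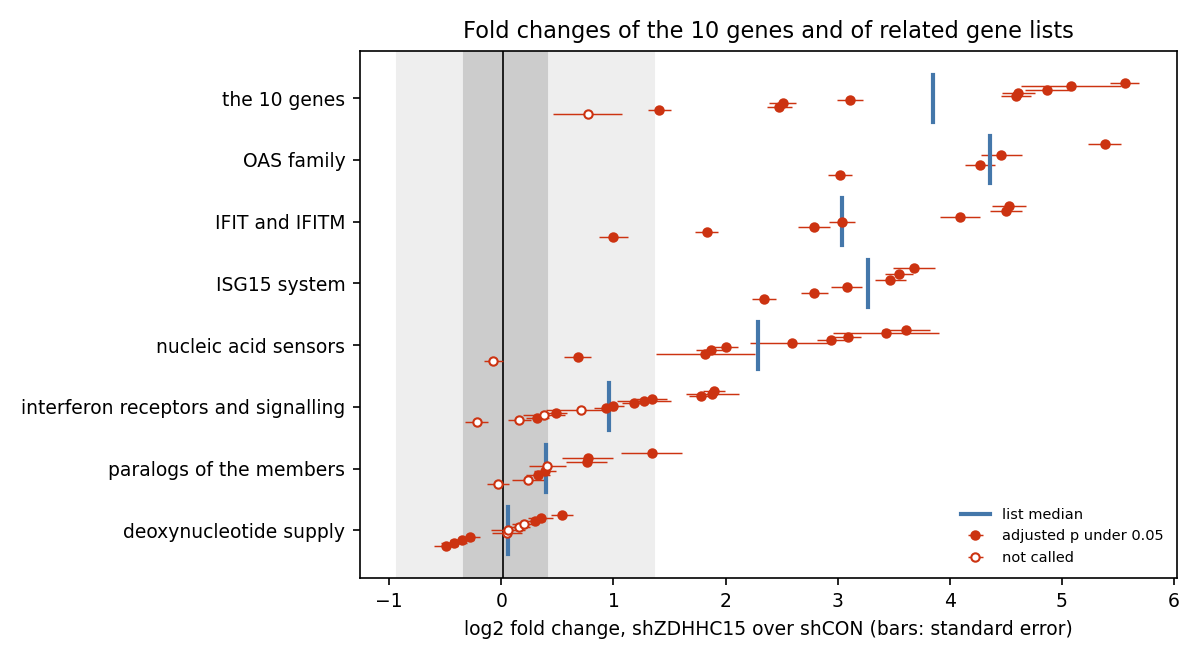
Log2 fold change (shZDHHC15 over shCON) of the tested genes of the 10-gene group and of 7 related lists, with bars for the standard error, filled points for an adjusted p under 0.05, open points for genes not called and blue bars for list medians; dark and light grey bands hold the middle 50% and 90% of all 15817 tested genes. The 10 genes (median 3.85) spread from 0.77 to 5.56, beside medians of 4.36, 3.04 and 3.27 for the OAS, IFIT/IFITM and ISG15 lists and 0.40 for paralogs of the 10 genes.

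Relatives of the 10 genes that are not known as interferon effectors had a smaller median fold change. Of 8 such paralogs, 5 were higher, 0 lower and 3 not called (DNM2, DNM1L and IFI27L1), where 21.7% of all tested genes were higher. Their median log2 fold change was 0.40, against 0.02 over all genes and 3.85 for the 10 genes. The 10 genes were chosen for their rise, so nothing is read from this contrast. Among dynamins, DNM1 rose by 1.34 (log2FC, SE 0.271, adjusted p = 0.00112 in the edgeR fit), more than MX1 of the 10 genes (0.77). DNM3 rose by 0.76 (standard error 0.182), and OPA1, of the mitochondrial inner membrane, rose by 0.33 (log2FC, SE 0.106). CMPK1, the cytosolic counterpart of CMPK2, rose by 0.39 (log2FC, SE 0.0967, adjusted p = 0.00472), from 138 ± 12.8 to 180 ± 2.74 CPM (SD, n = 2). IFI27L2, which lies beside IFI27, rose by 0.77 (log2FC, SE 0.228, adjusted p = 0.0136). Without shZDHHC15 replicate 1 the number of higher paralogs was 3, because IFI27L2 and OPA1 were no longer called.

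Genes near the 10 genes were taken by position alone. Some of them adjoin, overlap or are related to one of the 10 genes, so their values are not independent of the choice. Within 200 kb of the 7 loci there were 99 other genes, of which 41 were tested, 15 were higher and 11 lower. That is 63.4% called and 36.6% higher, where 42.0% and 21.7% of all tested genes were. The median log2 fold change of these neighbours was 0.29, far below that of the 10 genes. Without shZDHHC15 replicate 1 there were 11 higher and 6 lower genes, and without shZDHHC15 replicate 2 there were 13 and 6.

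Several neighbours that overlap or adjoin one of the 10 genes had large rises. AL445490.1, an antisense gene that runs across the 5′ part of the IFI6 span without sharing exonic bases with it, went from 7 and 4 counts in shCON to 116 and 170 in shZDHHC15 cells (log2FC 4.54 ± 0.392 SE, adjusted p = 4.59e-07). BISPR, a noncoding gene that starts back to back with BST2, went from 38 and 41 to 147 and 140 counts (log2FC 1.73 ± 0.234 SE, adjusted p = 3.72e-05). BISPR shares its span with MVB12A, which starts close by on the same strand and went the other way (log2FC -0.65 ± 0.128 SE), so reads of the overlap could be split. CCDC194, next to BST2, went from 4 and 7 to 43 and 35 counts (log2FC 2.68 ± 0.478 SE). AC010319.1, a pseudogene inside the BISPR span, went from 0 and 4 to 13 and 13 counts, a call lost under some of the alternatives.

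Further out around BST2, 8 other protein-coding genes were lower besides MVB12A, namely ABHD8, MRPL34, GTPBP3, USE1, SLC27A1, PGLS, BABAM1 and DDA1, with log2 fold changes from -1.01 for ABHD8 (standard error 0.122, adjusted p = 1.25e-05) to -0.36 for DDA1, and MYO9B was higher by 0.30. The calls of USE1, BABAM1, DDA1, SLC27A1, PGLS and MYO9B were lost under at least 1 alternative. At the MX locus all 3 tested neighbours were higher. TMPRSS2, a membrane serine protease, lies 5337 bases beyond MX1 on the opposite strand and went from 92 and 115 counts to 335 and 281 counts (log2FC 1.45 ± 0.191 SE, adjusted p = 3.05e-05), a larger fold change than that of MX1. BACE2, a secretase, was higher by 0.47 (log2FC, SE 0.0992, adjusted p = 0.00157), and PLAC4, antisense within the BACE2 span and 175155 bases from MX2, went from 2 and 2 counts to 32 and 24.

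Around IFI27, 4 of 6 tested neighbours were higher, namely ASB2 (1.21), IFI27L2 (0.77), OTUB2 (0.61) and DDX24 (0.32), of which IFI27L2 and DDX24 lost the call under some alternatives. Around SAMHD1, SOGA1 (0.78) and DSN1 (0.31) of 5 were higher, the latter under only some of the fits. Around IFI6, AHDC1 was higher by 0.63 (log2FC, SE 0.116) besides AL445490.1. WASF2 (-0.37) and PPP1R8 (-0.29) were lower, and neither of these calls stood under every alternative. The single tested neighbour of RSAD2 and CMPK2, RNF144A, was not called, and near IFI44 and IFI44L no other gene was expressed highly enough to be tested. NRIR, 106 bases from CMPK2, was not tested and went from 0 and 0 counts in shCON to 7 and 7 in shZDHHC15.

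**Figure D4:**
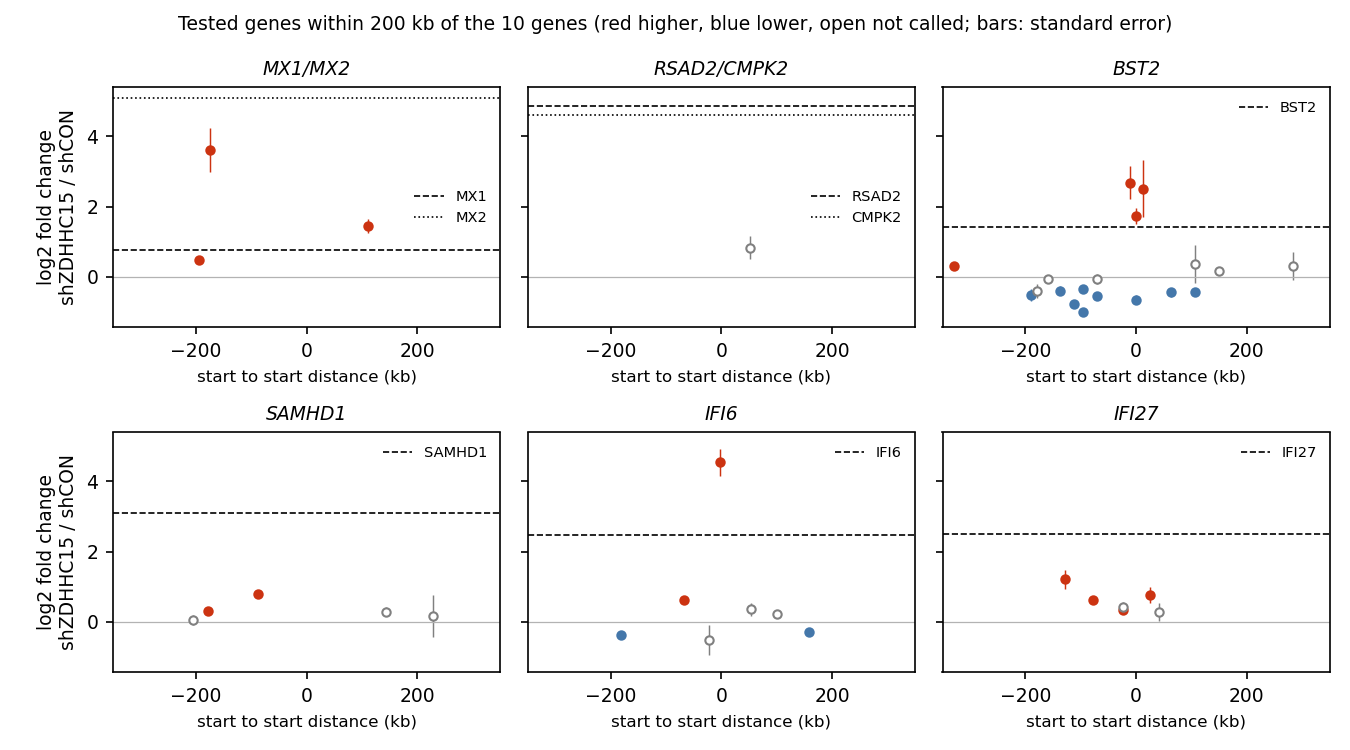
Log2 fold change (shZDHHC15 over shCON) of the 41 tested genes within 200 kb of the 10 genes against the distance between start sites in kilobases, for the 6 loci with tested neighbours; red points are higher and blue points lower at an adjusted p under 0.05, open points are not called, bars are standard errors and dashed or dotted lines mark the members themselves. AL445490.1 (4.54) beside IFI6 and BISPR (1.73), CCDC194 (2.68) and AC010319.1 (2.51) beside BST2 lie above the line of their member, and PLAC4 (3.61) and TMPRSS2 (1.45) above that of MX1.

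The genes with the profile most like that of the 10 genes were found by the Euclidean distance, over the 4 samples, between each gene's log2 CPM (with a prior count of 2) relative to the shCON mean and the median profile of the group, which was -0.09 and 0.09 in shCON and 3.94 and 3.71 in shZDHHC15. Of 12947 other protein-coding genes, the 5 closest were FCRL2 (distance 0.139), SLC15A3 (0.144), GBP5 (0.390), ISG15 (0.401) and GLDN (0.409). ISG15, the ubiquitin-like modifier, went from 63.0 ± 8.62 to 738 ± 105 CPM (SD, n = 2), and SLC15A3, a lysosomal peptide transporter, from 1.75 ± 0.297 to 27.3 ± 2.54 CPM. GBP5, a guanylate-binding protein gene, had 13 and 21 counts in shCON and 293 and 254 in shZDHHC15. FCRL2 had 0 and 0 counts in shCON and 28 and 26 in shZDHHC15, and GLDN 1 and 1 against 37 and 33. In the edgeR fit the log2FC of FCRL2 was 7.7 ± 1.12 (SE), beside the median of 3.85 for the 10 genes. At such depth the place of FCRL2 and GLDN in this order rests on few reads and on the prior count.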

How the data were processed

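The authors deposited raw counts of reads per gene, not normalized, for 4 samples, with the length, position and biotype of each gene. Libraries were made with the NEBNext Ultra kit. The submitters' processing notes name HISAT2, StringTie and SAMtools and the build hg38, with no roles or versions, and the counting tool and strand setting are not given in the sources used here. Gene symbols, starts and ends of all 58735 genes matched GENCODE release 29, and the deposited length of each of the 10 genes equalled its merged exons.

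The 10 genes and all gene lists were chosen with earlier results of these data known, and some genes of the lists are not reported here. Genes were kept by filterByExpr, and 15817 of them were fitted in edgeR 4.0.16 (limma 3.58.1, R 4.3.3) by glmQLFit in its current form after TMM scaling. The p-values of glmQLFTest were adjusted by Benjamini-Hochberg over these genes, and each SE was derived from log2FC and F. With 2 against 2 samples the smallest two-sided exact permutation p is 0.333, and the test used rests on a spread shared among genes. The floor for a count of 0 was 3 counts, or 0.153 to 0.178 CPM, for counting error only. Samples of a group differed by more than counting noise (chi-square per degree of freedom 8.32 and 6.79). When tested on simulated data for this comparison (15440 genes, 200 of them shifted by a log2FC of 1.5), the fit found 89.5% of the shifted genes, and 4.28% of its calls were false. The simulation took its spread from these data and shifted far fewer genes than the 42.0% called here. Its rates need not hold for the real comparison. By megablast of GENCODE transcripts, none of the 10 genes shared 150 or more bases at 97% identity with another gene, other than with the genes on the opposite strand of MX1 and SAMHD1.

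Named genes were the 10, ZDHHC15, neighbours within 200 kb that were called, the extreme called members of each list (all where 5 or fewer were called) and the 5 nearest profiles. IFNB1, IFNE, IFNL2, IFNL3 and the interferon genes at 0 counts were named after their values were seen. So were COL1A1, MAVS, OAS3, NRIR, RNF144A and the genes not called among paralogs. Alternatives were other scalings (DESeq2 size factors, library size, upper quartile), the DESeq2 1.42.0 Wald test, other filters, the legacy dispersion, the replicate block and leaving out each sample, where the lone sample of a group is assumed to vary like the other group.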

Additional observations from a re-analysis of the deposited data

How the results depend on the processing

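Of the 10 genes, 9 were called higher under each alternative except with library size as the only scaling, where MX1 was added and 10 were called. With at least 10 counts in every sample the 9 included MX1. Their median log2 fold change was 3.12 with at least 10 counts in every sample, where MX2 was not tested, and between 3.70 and 3.94 with each sample left out. Without the filter on low counts, 2282 genes were higher over all genes (3427 in the fit reported), 3 paralogs were higher, 1 deoxynucleotide gene was higher and 2 were lower. With library size only, 2 deoxynucleotide genes were lower. No interferon ligand was called with the DESeq2 Wald test (0), without the filter (0), with at least 10 counts in every sample (0, none tested) or with any sample left out (0). With samples left out in turn, between 0 and 1 genes of receptors and signalling were lower, between 3 and 6 paralogs were higher, between 1 and 3 deoxynucleotide genes were higher and between 1 and 4 lower, and between 6 and 11 neighbours were lower. Among single named genes, 44 calls in all were lost and 2 gained (both MX1) over the alternatives, and no direction turned. Except for the dependence on single samples given beside the results, the cause of these shifts was not tested.

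The labels do not say whether the replicate numbers pair the samples. Deviations of samples with the same number correlated at 0.0344, which with 2 samples per group cannot exclude a pairing. The fit with the replicate block called 3723 genes higher and 3502 lower, more than the 3427 and 3217 of the fit reported. It called 9 of the 10 genes higher, with a median log2 fold change of 3.84, and left MX1 uncalled (adjusted p = 0.0599 in edgeR). Depth limits MX1, MX2, the interferon ligands and other genes named with few control counts, such as FCRL2, GLDN and PLAC4.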

Other observations

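Some markers of other cell types were expressed in these epithelial cells and differed between the groups. PECAM1, an endothelial adhesion gene, had 75 and 56 counts in shCON and 666 and 405 counts in shZDHHC15 cells (log2FC 2.91 ± 0.256 SE, adjusted p = 5.43e-07 in the edgeR fit). CDH5, the endothelial cadherin gene, had 807 and 780 counts in shCON and 1224 and 1487 in shZDHHC15 cells (log2FC 0.65 ± 0.110 SE), while VWF had at most 7 counts. CSF1R, a myeloid receptor gene, had 153 and 177 counts in shCON and 68 and 105 in shZDHHC15 cells (log2FC -1.06 ± 0.219 SE). CD14, another myeloid gene, went the other way, from 9 and 5 to 25 and 22 counts (log2FC 1.61 ± 0.488 SE, adjusted p = 0.0159), and PTPRC had 4 counts or fewer. The keratin genes KRT8 and KRT18 had log2 fold changes of -1.62 (standard error 0.0930) and -1.58 (standard error 0.0946), and KRT19 of 0.44 (standard error 0.126). These genes were named after their values were seen.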
